A study of Mus musculus with 9 samples.

Results

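The cytosolic ribosomal protein genes encode the proteins that, with ribosomal RNA, make up the large and the small subunit of the ribosome. Members were the autosomal protein-coding genes of the mouse assembly GRCm38 whose symbol is Rpl or Rps with a number, together with Rplp0, Rplp1, Rplp2 and Rpsa. Pseudogenes named -ps, the ribosomal protein S6 kinases and the mitochondrial ribosomal proteins were left out, and so were Rps19bp1 and Rps23rg1, which encode no ribosomal protein. The rule gave 83 of 20661 autosomal protein-coding genes: 40 of the large subunit, 30 of the small subunit, 3 of the P stalk, which recruits the translational GTPases, and 10 paralogues whose symbol carries an added l, l1 or rt. No methylation value entered the choice. The members lay on 18 chromosomes, and their span from first to last annotated base had a median of 3183 bp (374 to 11774), against 17491 bp for all genes.

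Splenic B cells, enriched by magnetic depletion of the other cells, were profiled by bisulfite sequencing of the whole genome, which reads the methylation of single cytosines. Mice carried no (WT), 1 (HET) or 2 (HOM) copies of the substitution Ile5482Asn in KMT2D, an A-to-T change at base 98835228 of chromosome 15. KMT2D is a histone methyltransferase that places the monomethyl mark on lysine K4 of histone H3 at enhancers, and the substitution is in the germ line, so every cell of a mouse carries it. The HET and HOM columns are headed ENU, the name of a chemical mutagen, and other induced changes in those mice were not examined. The labels used here give no strain, age or sex of the mice. The labels list 2 B-cell samples for each genotype, but the table holds 1 pair of columns (methylated and covering reads at each CpG) for each, and no source used here says whether a pair holds 1 sample or both. Each genotype was therefore 1 library, no difference has a replicate check, and every test below compares 3 libraries rather than 3 genotypes. The labels also list B cell-depleted blood, not analysed here.

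In vertebrates methyl groups sit on the cytosine of CpG dinucleotides, and most of the genome is methylated except at CpG islands, the CpG-rich stretches in which most broadly transcribed genes start. Ribosomal protein genes are among the most highly transcribed genes of dividing and resting cells, and their mRNAs make up a large part of a cell's messages. Many begin with a cytosine and a run of pyrimidines, the terminal oligopyrimidine motif, through which the kinase mTOR and the RNA-binding protein LARP1 set their translation. The mammalian genome also holds many retrocopies of these mRNAs, inserted elsewhere without a promoter.

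RefSeq's promoter table for GRCm38.p6 listed a start for 63 of the 83 members, with 250 bp before and 50 bp after it. The 160 bp before the start are printed for 5 of them, 5′ to 3′ on the gene's strand with every CpG in capitals: Rps6 (the substrate of the kinases downstream of mTOR) and Rps18 as genes of the small subunit with an unmethylated start, Rpl36al as a paralogue with an unmethylated start, and Rpl39l and Rpl10l, which serve the male germ line, as paralogues with a methylated one. The stretches are chr4:86857368-86857527 (minus strand), chr17:33955666-33955825 (minus), chr12:69184068-69184227 (minus), chr16:10170068-10170227 (plus) and chr12:66284402-66284561 (minus).
Rps6: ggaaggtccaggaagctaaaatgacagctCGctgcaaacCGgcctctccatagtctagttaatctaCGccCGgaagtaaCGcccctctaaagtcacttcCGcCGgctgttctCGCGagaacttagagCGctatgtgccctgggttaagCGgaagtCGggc
Rps18: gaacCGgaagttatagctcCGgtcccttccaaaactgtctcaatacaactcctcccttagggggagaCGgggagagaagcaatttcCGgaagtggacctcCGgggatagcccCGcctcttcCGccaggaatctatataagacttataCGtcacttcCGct
Rpl36al: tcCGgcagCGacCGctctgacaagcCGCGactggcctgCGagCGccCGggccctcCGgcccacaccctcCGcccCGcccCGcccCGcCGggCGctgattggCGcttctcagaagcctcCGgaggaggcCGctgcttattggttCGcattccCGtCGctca
Rpl39l: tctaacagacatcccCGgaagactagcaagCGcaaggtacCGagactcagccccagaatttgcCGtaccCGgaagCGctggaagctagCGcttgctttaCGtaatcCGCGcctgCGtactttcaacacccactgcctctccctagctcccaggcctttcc
Rpl10l: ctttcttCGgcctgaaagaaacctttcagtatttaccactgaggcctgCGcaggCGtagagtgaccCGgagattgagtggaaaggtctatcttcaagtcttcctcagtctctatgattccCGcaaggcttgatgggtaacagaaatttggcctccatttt

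In these stretches the 12 CpGs of Rps6 had 0 of 153 reads methylated in WT, 0 of 198 in HET and 0 of 335 in HOM. Similarly, the 9 CpGs of Rps18 had 0 of 223, 0 of 380 and 0 of 363. Rpl36al, with 21 CpGs, had 0 of 139 in WT, 3 of 275 in HET and 0 of 245 in HOM. Each of these promoters was therefore at or near 0% in all 3 libraries. Over the 11 CpGs of Rpl39l, by contrast, 65 of 66 reads (98.5%) were methylated in WT, 79 of 88 (89.8%) in HET and 102 of 108 (94.4%) in HOM. The 5 CpGs of Rpl10l had 42 of 44 (95.5%), 48 of 53 (90.6%) and 16 of 18 (88.9%). The same number of letters thus held more CpGs in Rpl39l than in Rps18, with opposite methylation.

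Transcription starts are shown with the last 10 bases before the start in lower case and the first 15 transcribed bases in capitals, for 4 standard genes and the 3 paralogues above. Their windows are chr4:86857353-86857377 (minus) for Rps6, chr17:33955651-33955675 (minus) for Rps18, chr14:18270972-18270996 (minus) for Rpl15, chr3:90213634-90213658 (minus) for Rps27, chr12:69184053-69184077 (minus) for Rpl36al, chr16:10170218-10170242 (plus) for Rpl39l and chr12:66284387-66284411 (minus) for Rpl10l.
Rps6: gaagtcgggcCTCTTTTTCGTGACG
Rps18: cacttccgctCTCTCTTCCACAGGA
Rpl15: agaaagccttCTTCCTTTCCTCTGG
Rps27: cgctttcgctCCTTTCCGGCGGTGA
Rpl36al: ccgtcgctcaGGTTCAGTTCCGACT
Rpl39l: aggcctttccGGATTTCCGGTGGTC
Rpl10l: cctccattttGCGGCTGGCGGTGGG

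A cytosine followed by at least 4 pyrimidines exactly at the listed start was present in 11 of the 53 genes with a standard symbol (20.8%): Rpl14, Rpl15, Rpl28, Rpl35, Rpl38, Rplp2, Rps10, Rps15a, Rps18, Rps27 and Rps6. The share over all 16456 listed starts was 2.16%. Of the 10 paralogues, Rpl32l and Rps27rt carried it. Allowing a cytosine with at least 5 pyrimidines anywhere within 10 bp of the start, 25 of 53 standard genes (47.2%) had one, against 19.2% of all starts. The listed starts are single positions from an annotation, and no start was measured here.

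The 300 bp promoters of the 53 standard genes held a median of 23 CpGs, against 15 over all promoters. Of 7 motifs searched on both strands, the ETS motif CCGGAAG occurred in 22 of the 53 (41.5%) and in 12.6% of all promoters. Rps18 has it at -156 and -74 from the start, both visible above as cCGgaag. The palindromic ZBTB33 motif was found in 5 of 53 (9.43%) and 0.693% of all, and the YY1 motif AANATGGC in 8 (15.1%) and 6.76%. The SP motif GGGCGG (30 genes, 56.6%, against 49.1%), the palindromic NRF1 motif (2 genes, 3.77%, against 1.40%) and the E-box CACGTG (6 genes, 11.3%, against 8.13%) were in shares closer to those of all promoters. The letters TATAAA were in 3 standard genes (5.66%) and in 13.2% of all promoters. A match is a run of letters and not a measured binding site.

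The CpG inside the ETS motif lay at 26 positions in the 22 genes; the single one of Rpl11 had 0 reads in WT, and 1 of those of Rpl37 had 0 in HOM. It was methylated in 0 of 368 reads (WT), 0 of 543 (HET) and 2 of 450 (HOM). The CpGs inside the ZBTB33 motif had 0 of 125, 1 of 170 and 0 of 206 reads methylated. Rpl39l also carries 2 ETS motifs, at -145 and -91, and there 11 of 11 reads were methylated in WT, 14 of 16 in HET and 20 of 21 in HOM. These 7 letters were thus unmethylated in the standard genes and methylated in this germ-line paralogue.

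Over the whole 300 bp start window, all 53 standard genes lay below 5% in each library. Pooled over these genes the level was 0.254% in WT (36 of 14182 CpG reads), 0.329% in HET (64 of 19462) and 0.275% in HOM (44 of 16004). No methylated read at all was seen in 34 of the 53 genes in WT, and in 20 and 23 of them in HET and HOM. The highest WT value was that of Rpl24, with 4.02% (WT), 0.787% (HET) and 1.22% (HOM). Rpl6 followed with 3.37%, 0.971% and 0%, and Rps10 with 1.51%, 0% and 0.690%. Rplp0, the scaffold of the P stalk, stood at 1.06%, 1.31% and 0.697%, and Rpl5, which binds the MDM2 regulator of the tumour suppressor TRP53, at 1.05%, 0.515% and 0%. In Rpl24, Rpl6, Rps10 and Rpl5 the WT value was the highest of the 3, and in Rplp0 that of HET was.

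The 10 paralogues fell into a pair of sets. Rpl22l1 (0%, 0.422% and 0.204% in WT, HET and HOM), Rpl36al (0%, 0.725%, 0%), Rpl7l1 (0.253%, 0%, 0.414%) and Rps27l (0.316%, 0%, 0%) were as low as the standard genes. The other 6 were methylated in every library. Rpl10l had 95.3%, 85.1% and 88.0%, and Rpl39l had 90.7%, 82.9% and 91.9%. Rpl37rt stood at 98.2%, 92.4% and 94.0%, and Rps27rt, also a retrotransposed copy by its symbol, at 85.0%, 85.6% and 84.9%. All 4 lay above the mean of the open sea, the CpGs over 4000 bp from any island, in the same library (81.6%, 80.9% and 78.1%). Rpl3l, the striated-muscle counterpart of Rpl3, had 93.1%, 97.4% and 94.4% on 29, 38 and 36 CpG reads. Rpl32l had 95.5%, 92.3% and 88.9% on 22, 13 and 27, the thinnest coverage of the set.

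In annotated retrocopies the ribosomal protein sequence sits without its promoter. They were measured over their whole span and not over a 300 bp start window, so their levels are not the same measure. Of 281 autosomal pseudogenes named for a ribosomal protein gene with -ps, 204 had at least 3 CpGs and 30 CpG reads in each library. Their median was 91.3% in the WT library, 90.5% in HET and 88.2% in HOM, against 87.3%, 86.8% and 83.5% over all 6384 autosomal pseudogenes measured. Above 50% were 203, 200 and 201 of the 204, and none was below 10% in any library. For 195 of them the parent was a member, from 52 different genes. Rpl9-ps3 had the lowest WT level, with 33.0%, 27.3% and 27.4%. The HOM minus WT difference had a median of -3.40 percentage points in retrocopies and -3.18 in all pseudogenes.

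**Figure D1:**
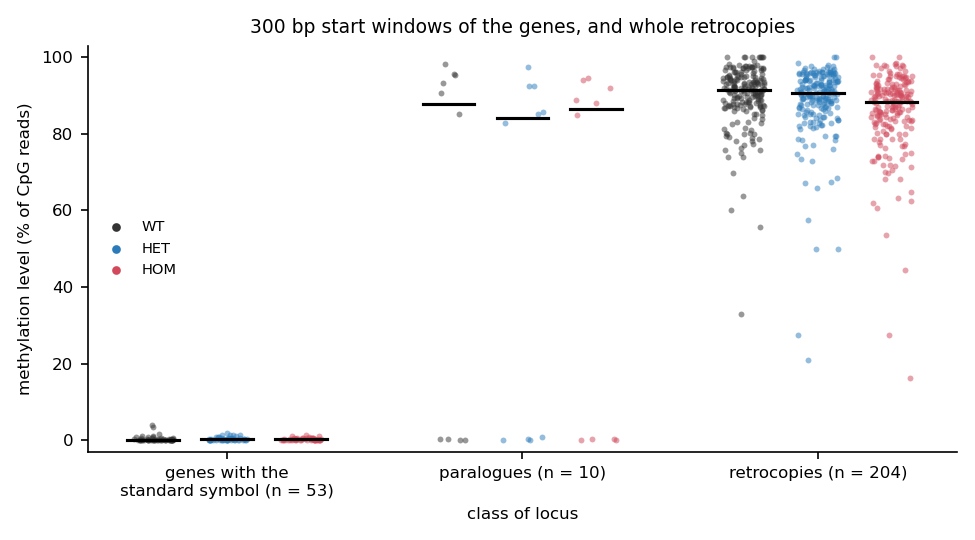
Methylation level (percent of CpG reads, vertical axis) in the WT, HET and HOM libraries for the 300 bp start windows of 53 standard genes and 10 paralogues and for 204 whole retrocopies, 1 point per gene. The standard genes all lie below 5%, the paralogues split into 4 low and 6 high, and the retrocopies have a WT median of 91.3%.

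A CpG island whose core was below 20% methylated in the mean of the 3 libraries lay within 2 kb of 77 of the 83 members: all 73 standard genes and the paralogues Rpl22l1, Rps27l, Rpl36al and Rpl7l1. The 6 without one were Rpl10l, Rpl32l, Rpl37rt, Rpl39l, Rpl3l and Rps27rt. Island length had a median of 678 bp (236 to 1526) with 65 CpGs (21 to 183). Over the whole island the level had a median of 0.229% (WT), 0.255% (HET) and 0.197% (HOM), and that of Rpl37a, with 2.57%, 1.74% and 2.66%, was the highest in WT and HOM. In HET the highest was that of Rpl8, with 0.429%, 1.93% and 1.97%. The island of Rps6 (1000 bp, 97 CpGs) had 0%, 0.209% and 0.107%. Rps19, mutated in Diamond-Blackfan anaemia, had 0.0908%, 0.0845% and 0.191% over 748 bp. The 77 islands were below 5% in all 3 libraries. For Rpl4, Rpl7 and Rpl7l1 the island lay outside the span.

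The CpG-richer end of each gene was the window from 1000 bp outside to 500 bp inside whichever gene end held more CpGs. It was the gene end on the side of the listed start in 59 of the 63 members that have one. Of these, Rpl18, Rpl19, Rpl38 and Rps27l have their listed start more than 500 bp inside the span, so the window did not hold it. All 83 members passed the minimum of 3 CpGs and 30 CpG reads in every library. The median level was 5.51% in the WT library, 4.31% in HET and 4.89% in HOM, against 15.2%, 15.7% and 13.8% over all 19275 ends. Below 10% were 57, 58 and 58 members (68.7% in WT), against 40.7% of all ends in WT. In WT the small subunit had a median of 3.64%, the large subunit 6.01%, the P stalk 1.96% and the paralogues 86.4%. In 23 members another protein-coding gene reached into the window.

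At the low end, Rpl7 had 0% (WT), 0.241% (HET) and 0.267% (HOM). Rpl15 had 0.0725%, 0.282% and 0.284%, Rpl36al 0.124%, 0.314% and 0.212%, and Rps25 0.124%, 0.336% and 0.353%. In these 4, whole windows of 1500 bp were nearly free of methylation. Rps14, whose loss of 1 copy marks a form of myelodysplastic syndrome, had 1.36%, 1.49% and 1.91%. Rps19 had 2.85%, 2.64% and 3.12%, and Rpl3, near the peptidyl transferase centre, 3.04%, 1.61% and 0.937%. Rps27a, made as a fusion with ubiquitin, had 4.02%, 3.40% and 3.0%, and Rps6 6.18%, 3.15% and 4.25%. Rpl22l1 had 5.90%, 6.88% and 7.43%, Rpsa 6.36%, 8.59% and 6.98%, and Rpl7l1 7.42%, 7.68% and 7.41%. Just below 10% in WT lay Rpl11 (7.60%, 7.03%, 5.46%), Rpl31 (8.22%, 7.46%, 7.81%), Rpl6 (8.33%, 4.53%, 4.95%), Rpl34 (8.95%, 6.77%, 10.2%) and Rps15 (9.45%, 15.5%, 12.9%).

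Of the 26 members above 10% in WT, 19 had a standard symbol. Rpl22, an RNA-binding protein needed in lymphocyte development, stood at 93.5%, 92.6% and 91.5%. Rps2 had 63.3%, 66.2% and 54.8%, Rpl17 had 62.1%, 60.6% and 77.2%, and Rpl38 had 37.4%, 35.5% and 43.4%. For these 4 genes the unmethylated island lay inside the span beyond the window: the island of Rpl22 (610 bp) had 0%, 0.118% and 0.185%, that of Rps2 (925 bp) 0.140%, 0.104% and 0.752%, and that of Rpl38 (618 bp) 0.151%, 0.270% and 0.605%. The window thus missed the island rather than finding it methylated. Between 10% and 25% in WT were Rps7 (10.6%, 9.43%, 7.82%), Rpl23 (10.7%, 8.01%, 4.46%), Rpl26 (11.1%, 13.6%, 10.6%), Rpl29 (11.5%, 15.7%, 12.4%) and Rpl12 (11.6%, 11.7%, 9.94%). Further genes in that range were Rpl5 (12.3%, 13.7%, 13.8%), Rps16 (13.9%, 16.6%, 17.3%), Rpl18 (14.9%, 12.9%, 13.2%), Rpl8 (16.5%, 15.4%, 10.9%) and Rplp0 (17.9%, 14.0%, 12.7%). Also in it were Rpl10a (18.7%, 15%, 15.9%), Rps24 (18.8%, 24.3%, 11.2%), Rpl21 (20%, 22.4%, 30.2%) and Rpl23a (21.9%, 12.2%, 11.3%). Among the paralogues Rpl3l had 30.2%, 31.1% and 35.4%. Rps27l stood at 89.5%, 83.1% and 86.5%, although its 300 bp start window was unmethylated. Rps27rt (85.6%, 88.5%, 88.1%), Rpl39l (87.2%, 79.6%, 87.7%), Rpl32l (90.3%, 91.2%, 83.5%), Rpl10l (93.8%, 86.6%, 90.8%) and Rpl37rt (96.3%, 93.7%, 93.1%) were methylated here as at their starts.

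**Figure D2:**
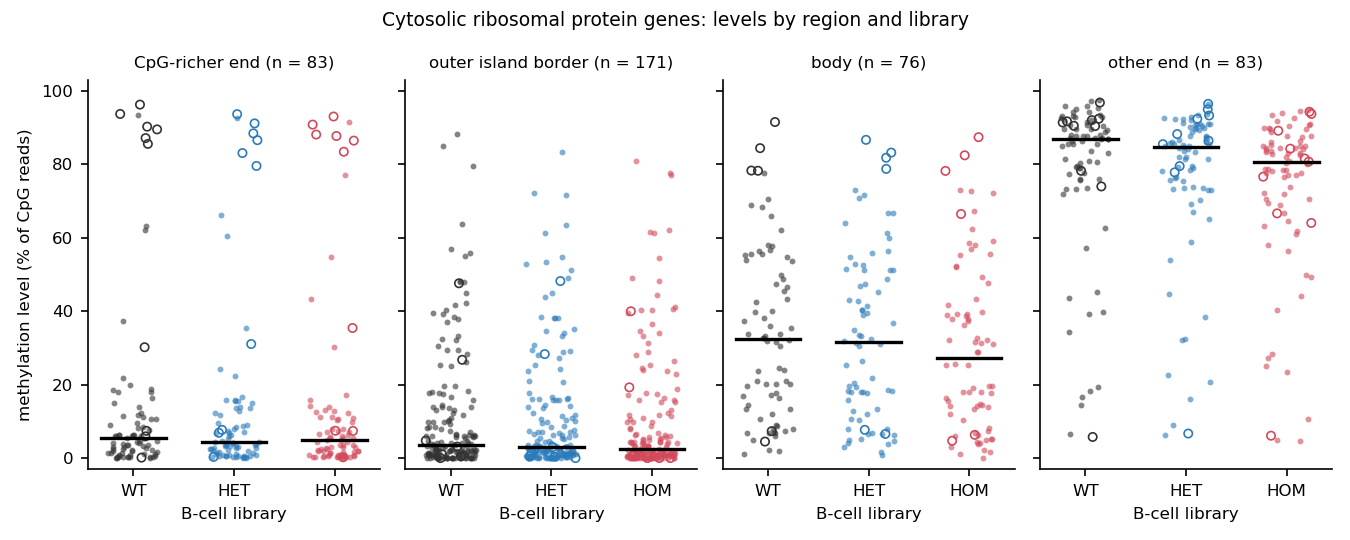
Methylation level (percent, vertical axis) in the WT, HET and HOM libraries at the CpG-richer end, the other end, the outer island borders and the bodies of the members, 1 point per gene or border, with paralogues as open circles and medians as bars. CpG-richer ends have a WT median of 5.51% and other ends one of 86.8%.

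Few of these ends were called as different between libraries. A region was called where Fisher's exact test on its summed CpG reads, two-sided and adjusted by Benjamini-Hochberg over all regions of that kind, gave an adjusted p below 0.05 and the levels differed by at least 10 percentage points. The members' mean changed from WT to HOM by -0.456 points (95% counting interval -0.791 to -0.122), against -1.62 over all ends, and 49 of 83 (59.0%) were below 0, against 64.7% of all. The mean was -0.165 with CpGs weighted equally, and with a window from 500 bp outside to 250 bp inside the end it turned to 0.0465. Rpl23a, which lines the exit of the nascent-chain tunnel, was called lower (11:78183084-78184584, -10.6 points, interval -16.2 to -5.34, adjusted p = 0.00176 by Fisher's exact test). That is 1 of 83 members, where 3.67% of all ends were called lower. The 57 members below 10% in WT (68.7%, against 40.7% of all ends) could not fall by 10 points. The shares called lower and the mean changes therefore do not compare like with like, and the same limit applies to the other comparisons of these ends. By Fisher's exact test, Rpl17 (+15.1 points, adjusted p = 0.00922) and Rpl21 (5:146831890-146833390, +10.2, adjusted p = 9.01e-06) were called higher, where 1.05% of all ends were. With every CpG weighted equally the differences were -4.14 points for Rpl23a, 8.22 for Rpl17 and 2.52 for Rpl21, so none reached 10, and with counts divided by the CpGs per read 0 were called. The drop of Rpl23 was 6.22 points (adjusted p = 4.89e-05 by Fisher's exact test), short of the size required.

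Between WT and HET the mean changed by -0.331 points (-0.652 to -0.0102), and 0 members were called, against 1.46% of all ends called higher and 1.29% lower. From HET to HOM the mean changed by -0.125 (-0.437 to 0.187). Rps24, a gene mutated in Diamond-Blackfan anaemia, was called lower by Fisher's exact test (-13.1 points, adjusted p = 6.07e-13, -0.605 with CpGs weighted equally) and so was Rps2 (-11.5, and -9.40). Rpl17 was called higher (+16.6, and 5.36). The background was 3.08% lower and 0.773% higher. In the window from 1000 bp before to 500 bp after the listed start, measured in 63 members, 0 were called in any comparison. The WT median there was 4.65%, against 10.3% over all such windows, so a call lower than WT was out of reach for many members. Over all 15139 such windows the shares called lower and higher were 3.02% and 0.984% (HOM against WT), 1.18% and 1.27% (HET against WT), and 2.38% and 0.634% (HOM against HET). Both comparisons with HOM share the HOM library, and both with WT share the WT library.

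On the start side, levels were followed by distance from the listed start for the 53 members whose start lay in an unmethylated island, with 8544 other genes chosen the same way beside them. By the median over genes, members were lower than the other genes in each window from 500 to 2500 bp downstream of the start and higher in those upstream. From 500 to 1000 bp downstream the members' median was 2.16% in the WT library, 1.11% in HET and 1.21% in HOM, against 6.58%, 6.25% and 5.26%, and 46 of 51 members (90.2%) lay below 10% in WT, against 56.7% of the others. From 1000 to 1500 bp downstream it was 35.2%, 34.4% and 28.1%, against 55.5%, 54.7% and 49.0%. Pooled over reads, the levels of that stretch were close in WT (36.3% against 37.4%), and in the bin from 1400 to 1600 bp the members were the higher (60.1% against 52.6%). Upstream the medians were 36.2%, 39.0% and 29.5% at 500 to 1000 bp, against 27.2%, 27.3% and 25.3%, and 85.0% in WT at 1000 to 1500 bp, against 75.6%. The 50% level was reached at a median of 748 bp upstream and 1351 bp downstream in WT, against 846 and 1144 bp. The downstream distance was the longer one in 45 of 53 members (84.9%) in WT and in 70.1% of the other genes. It was also the longer in 47 members in HET and 43 in HOM. These are descriptions over genes, with no test.

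In HOM the downstream 50% distance had a median of 1457 bp, and in HET 1382 bp. It was longer in HOM than in WT in 30 members, shorter in 6 and equal in 17, with a median change of 25 bp. In the other genes it was longer in 4058, shorter in 1531 and equal in 2893, with a median change of 0 bp. Pooled over members, the bin from 1400 to 1600 bp downstream stood at 60.1% (WT), 55.8% (HET) and 46.7% (HOM). The drop of 13.4 points compares with -4.13 in the other genes.

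**Figure D3:**
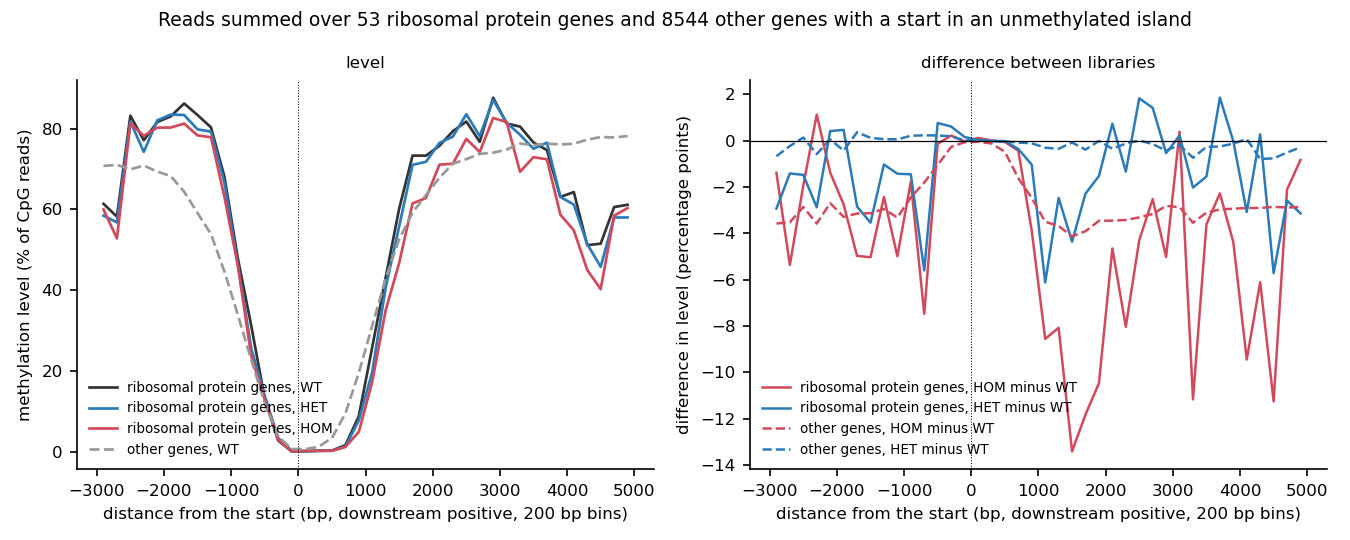
Left, methylation level (percent) by distance from the start in 200 bp bins from 3000 bp upstream to 5000 bp downstream, for the 53 members in each library and for 8544 other genes in WT (dashed). Right, the differences HOM minus WT and HET minus WT in percentage points for members (solid) and other genes (dashed); in the bin from 1400 to 1600 bp the members' HOM minus WT difference is -13.4 and that of the other genes -4.13.

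The stretch from 1500 to 2500 bp downstream was then measured gene by gene, a window chosen after the profile had been seen. It had enough reads in 52 members, and the other 31 members, which lack a listed start in an unmethylated island or enough reads there, are not covered by it. The members' mean level was 76.5% in the WT library, 76.3% in HET and 69.4% in HOM, with medians of 78.9%, 80.9% and 73.8%. Over all 7849 such windows the means were 73.2%, 72.7% and 69.4%, with medians of 84.5%, 83.8% and 79.5%. From WT to HOM the members' mean changed by -7.12 points (-8.75 to -5.48), against -3.81 over all windows. Lower in HOM than in WT were 41 of 52 (78.8%), against 72.0%, and HOM was the lowest of the 3 libraries in 38 of 52. Called lower were 8 members (15.4%, against 4.75% of all windows), and 0 were called higher, against 0.522%.

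Rps27, a zinc-finger protein of the small subunit, had the greatest drop of the 8 (3:90211148-90212147). It stood at 74.8% of 131 CpG reads for WT, 58.0% of 143 for HET and 42.9% of 147 for HOM, a difference of -32.0 points from WT to HOM (-42.1 to -20.5, adjusted p = 2.93e-05 by Fisher's exact test). Of its CpGs with at least 5 reads in both libraries, 10 were lower in HOM and 0 higher. Rpl23, another MDM2-binding protein, had 74.2%, 53.5% and 45.5% over 5 CpGs (-28.8 points, adjusted p = 0.0335 by Fisher's exact test). Rps18 had 84.7%, 76.0% and 61.8%, Rpl28 had 81.6%, 68.4% and 61.2%, and Rplp0 had 74.8%, 69.1% and 59.1%. In these 5 genes HET lay between the other libraries. Rps10 (17:27632744-27633743) had 57.7%, 63.2% and 37.5%, and Rpl13a, whose protein also silences inflammatory mRNAs, had 76.1%, 79.2% and 61.8%. Rps21 had 91.7%, 91.2% and 80.7%. In these 3 genes HET was near or above WT. With CpGs weighted equally, 6 of the 8 still dropped by at least 10 points, the exceptions being Rplp0 (-7.23) and Rpl13a (-7.71). When counts were divided by the CpGs per read, so that CpGs on a shared read no longer count separately, 0 of the 8 were called.

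Levels went up in some members. Rpl10a rose from 68.0% in WT to 80.9% in HET and 77.3% in HOM, and Rps7 stood at 82.9%, 85.7% and 88.6%, neither called. Rpl41 was still unmethylated in this stretch (0.901%, 0.825%, 1.25%), and Rps9 had 21.8%, 20.9% and 22.6%. From WT to HET the mean changed by -0.165 points (-1.63 to 1.3), or by -1.82 with the window moved 250 bp toward the start, with 0 members called (1 in the moved window), against 1.01% of windows called higher and 0.930% lower. From HET to HOM it changed by -6.95 (-8.47 to -5.43), against -3.31 over all windows, and 5 members were called lower (background 5.01%, and 0.420% for higher): Rps10, Rps21, Rpl13a, Rps3 (69.2%, 71.8%, 56.5%) and Rpsa (55.1%, 64.0%, 41.2%). The stretch from 1500 to 2500 bp upstream changed by -2.51 points from WT to HOM in members and by -3.30 in the other genes with a start in an unmethylated island.

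The other end of the gene, in most members the end of transcription, was methylated. Its median over 83 members was 86.8% (WT), 84.8% (HET) and 80.8% (HOM), against 86.6%, 85.8% and 82.6% over all 18135 such ends. Above 50% were 72, 73 and 71 members. Among the members below 20% in WT were Rpl41 (6.52%, 6.29%, 4.75%), Rpl7l1 (5.75%, 6.68%, 6.10%), Rpl36 (14.5%, 9.01%, 4.99%), Rpl4 (16.5%, 16%, 10.7%) and Rps18 (18.3%, 20.8%, 23.5%). In Rpl41 this end holds the listed start, so its values are those of the start and not of the end of transcription. Rps14 (92.1%, 90.9%, 89.8%) and Rps6 (91.5%, 85.8%, 88.8%) were among the high ones. Rpl3 had 86.9%, 84.4% and 77.1%, Rpl11 had 81.0%, 92.0% and 86.4%, Rpsa had 62.6%, 58.9% and 61.1%, and Rps19 had 39.9%, 38.5% and 44.1%.

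The mean of these ends changed from WT to HOM by -5.10 points (-6.05 to -4.14), against -3.10 over all, and 66 of 83 (79.5%) were lower, against 71.5%. Called lower were 8 members (9.64%, against 4.21% of all other ends), and 0 were called higher, against 0.833%. Rpl28 fell from 77.5% in WT through 65.2% in HET to 56.4% in HOM (7:4794047-4795547, -21.2 points, adjusted p = 0.00165 by Fisher's exact test). Rps7 had 97.5%, 76.6% and 78.6% on 80 to 111 CpG reads, and Rps13 had 92.6%, 89.9% and 73.9%. Rplp1, of the P stalk, had 76.2%, 67.0% and 58.0%, and Rpl13a 45.4%, 32.4% and 27.2%. Rpl8 had 79.1%, 79.3% and 63.2%, Rps21 had 81.4%, 73.8% and 66.7%, and Rpl37 had 90.6%, 81.9% and 78.2%. The drop kept 10 points with CpGs weighted equally in Rpl28, Rpl37, Rplp1, Rps13 and Rps21, and not in Rps7 (-6.01), Rpl8 (-7.41) or Rpl13a (-0.502). With counts divided by the CpGs per read, 0 of the 8 were called. From WT to HET the mean changed by -1.70 (-2.56 to -0.837) and Rps7 was called lower (-20.9 points, adjusted p = 0.00349 by Fisher's exact test), where 1.06% of all such ends were called lower and 0.750% higher. From HET to HOM the mean changed by -3.39 (-4.31 to -2.48), and Rps23 (57.3%, 70.3%, 49.4%), Rps9 (39.3%, 53.9%, 40.3%), Rpl8 and Rps13 were called lower (4 of 83, background 3.75%, and 0.772% for higher).

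Bodies, the span more than 500 bp inside both ends, passed in 76 members. Rpl10l, Rpl22l1, Rpl32l, Rpl41, Rps21, Rps27 and Rps27rt had none with enough CpGs and reads. The 76 measured bodies had a median of 32.4% in the WT library, 31.6% in HET and 27.3% in HOM, against 79.2%, 78.7% and 75.7% over all 18294 bodies. Members are shorter than most genes. Outside islands and their borders the WT medians were 66.8% in members and 83.5% over all. The part of gene length and islands in the low level of the bodies was not tested. Rpl7l1 (84.4%, 86.7%, 82.5%) and Rpl3l (78.3%, 78.8%, 78.2%) were high, Rpl3 (62.1%, 59.8%, 59.2%), Rplp0 (54.0%, 51.5%, 56.9%) and Rpsa (53.8%, 55.9%, 47.6%) in the middle. Rpl11 had 43.3%, 43.2% and 37.9%, Rps19 had 31.9%, 33.1% and 32.2%, Rps14 had 31.6%, 31.9% and 25.3%, and Rps6 had 24.1%, 21.9% and 19.7%. Rps27a (17.3%, 15.9%, 8.13%) and Rps27l (7.34%, 6.58%, 4.72%) were low.

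Bodies changed from WT to HOM by a mean of -3.39 points (-4.02 to -2.75), close to the -3.22 over all bodies. Lower in HOM than in WT were 55 of 76 members (72.4%), a smaller share than the 86.6% of all bodies. Called lower were 8 members (10.5%, against 2.94%), and 0 were called higher, against 0.279%. Rpl21 had 48.7% of 540 CpG reads for WT, 42.9% of 744 for HET and 32.1% of 576 for HOM (5:146833391-146836531, -16.6 points, interval -22.2 to -10.9, adjusted p = 8.62e-08 by Fisher's exact test). Its CpG-richer end, directly beside this body, was called higher. Rpl5 had 55.5%, 51.1% and 39.4% (5:107901009-107908504, adjusted p = 1.56e-09 by Fisher's exact test, -3.56 points with CpGs weighted equally). Rps10 had 49.8%, 53.0% and 37.9%, with 40 CpGs lower and 9 higher. Rpl30 had 35.5%, 26.4% and 17.6%, and Rpl23 had 46.7%, 33.5% and 31.5%. Rpl35a, mutated in Diamond-Blackfan anaemia, had 32.3%, 30.5% and 16.5%, but changed by -1.78 points with CpGs weighted equally. Rpl39l, whose start was methylated, had 78.3%, 81.8% and 66.5%, and Rpl6 had 69.0%, 66.7% and 58.1%. With CpGs weighted equally Rpl21, Rpl23, Rpl30 and Rps10 kept a drop of 10 points. With counts divided by the CpGs per read, Rpl5 (adjusted p = 0.00581) and Rpl21 (adjusted p = 0.0146) were still called by Fisher's exact test, 2 of 76, against 1.44% of all bodies.

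Among the greatest differences upward, none called, were those of Rpl31 (32.7%, 39.1%, 41.6%), Rpl8 (7.46%, 6.68%, 14.5%) and Rplp2 (65.9%, 71.7%, 72.1%). From WT to HET the mean changed by -0.516 points (-1.12 to 0.0829). By Fisher's exact test, Rpl23 was called lower (-13.1, adjusted p = 1.70e-05, background 0.787%) and Rpl22 higher, with 37.2% (WT), 47.5% (HET) and 37.3% (HOM) (adjusted p = 3.66e-13, background 0.536%). For Rpl22 the difference with CpGs weighted equally was 0.715 points, with 46 CpGs higher and 51 lower. Rps26, a gene of the mRNA exit channel (33.3%, 46.8%, 38.7%), and Rpl13a (54.8%, 64.0%, 52.3%) also had great differences upward. Rpl30 and Rpl37rt (91.6%, 83.2%, 87.4%) had the greatest downward beside Rpl23, none of these called. From HET to HOM the mean changed by -2.87 (-3.44 to -2.30), and Rpl39l, Rpl35a, Rps10, Rpl22, Rpl5, Rpl21 and Rpl13a were called lower (7 members, 9.21%, background 2.06%, and 0.268% for higher).

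With islands and their 500 bp outer borders taken out of the body, 69 members remained and the difference was greater. Their median was 66.8% in the WT library, 67.4% in HET and 57.9% in HOM, against 83.5%, 82.9% and 80.1% over all 17977 such bodies. From WT to HOM the mean changed by -6.78 points (-7.91 to -5.65), against -3.22 over all, and 61 of 69 members (88.4%) were lower, against 89.3% of all. Called lower were 15 members (21.7%, against 2.25%), and 0 higher, against 0.200%. The counting interval excluded 0 in 27 of the 69 members, against 12003 of all 17977 such bodies. Calls of these bodies outside islands were not repeated with CpGs weighted equally or with counts divided by the CpGs per read. For whole bodies, the divided counts left 2 of the 8 calls from WT to HOM. Members are shorter than most genes, so what remains lies closer to the start. The shares called thus compare bodies of unlike length and unlike WT level. The part of length, level and position in the difference was not tested.

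Rpl27a had the greatest drop, with 67.3%, 53.2% and 40.2% (7:109519696-109521868, -27.2 points, adjusted p = 0.000277 by Fisher's exact test). Rpl30 had 56.9%, 42.0% and 32.9%, Rps20 had 52.5%, 55.9% and 29.2%, and Rpl21 had 67.7%, 67.7% and 44.5%. Rpl32 had 57.1%, 45.2% and 38.6%, Rpl23 had 75.7%, 66.7% and 57.2%, and Rpl29 had 54.2%, 51.3% and 37.7%. All 7 were lowest in HOM, and HET was equal to or above WT in Rps20 and Rpl21. The other 8 called were Rps27l (72.1%, 71.6%, 56.4%), Rpl13 (47.2%, 45.2%, 33.5%), Rps10 (58.5%, 62.9%, 45.6%), Rpl9 (76.0%, 73.2%, 64.3%), Rpl35 (63.8%, 54.3%, 52.2%), Rps3 (69.7%, 68.4%, 58.1%), Rpl6 (82.7%, 78.7%, 72.2%) and Rpl39l. Rpl23a (30.5%, 35.2%, 40.0%) had the greatest difference upward, not called. Between WT and HET the mean changed by -1.09 points (-2.17 to -0.0195) with 0 called, against 0.339% higher and 0.562% lower. Between HET and HOM it changed by -5.69 (-6.75 to -4.63), with 11 called lower (background 1.62%, and 0.184% for higher).

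**Figure D4:**
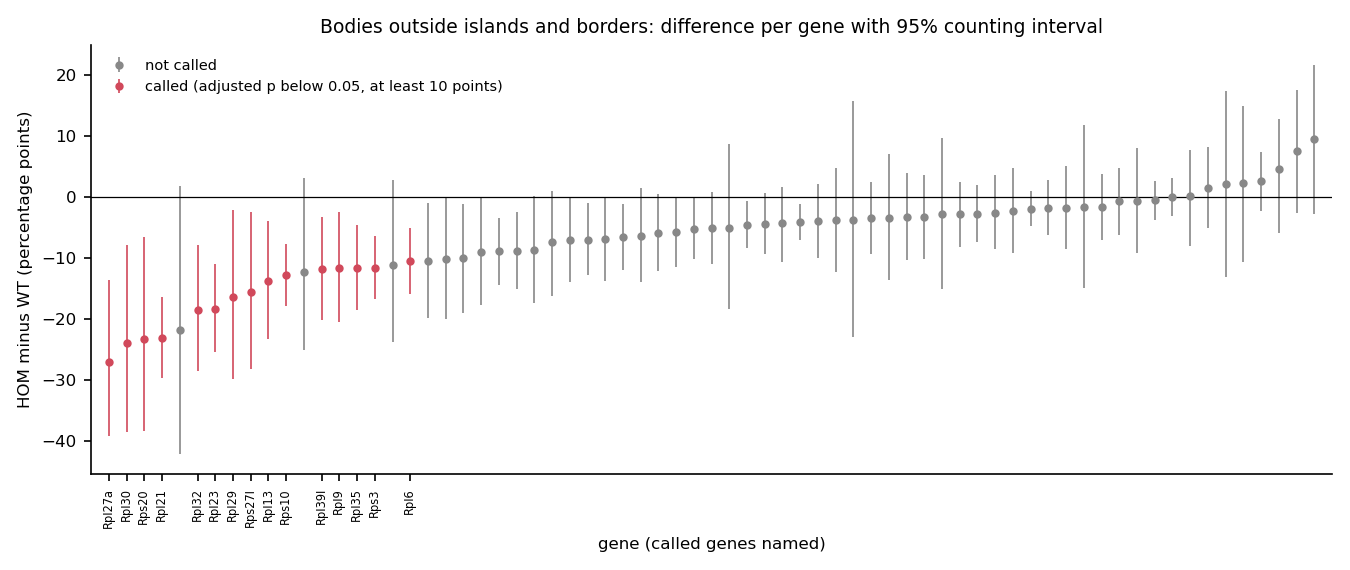
HOM minus WT difference (percentage points, vertical axis) in the body outside islands and borders for 69 members in ascending order, with 95% counting intervals as bars and the 15 called genes in red and by name. Of the 69 points, 61 (88.4%) lie below 0, against 89.3% of all such bodies, and Rpl27a is the lowest with -27.2.

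The series' title concerns methylation at CpG island borders, so the 500 bp outside each edge of the members' unmethylated islands were measured. The 171 borders had a median of 3.48% (WT), 2.91% (HET) and 2.41% (HOM), against 9.26%, 9.26% and 8.26% over all 26083. Below 10% were 119, 118 and 125 of them, and a border below 10% in WT cannot be called lower in another library. From WT to HOM the mean changed by -1.31 points (-1.85 to -0.782), against -1.37 over all. The border of Rpl8, which helps form the peptidyl transferase site, was called higher (15:76904672-76905171). It had 2.73% of 220 CpG reads for WT, 3.56% of 337 for HET and 15.4% of 247 for HOM, a difference of 12.7 points (7.63 to 17.9, adjusted p = 0.000780 by Fisher's exact test), and 12.8 with CpGs weighted equally. With counts divided by the CpGs per read, 0 members' borders were called in any comparison. This was 1 of 171, against 0.341% of all borders called higher, and 0 were called lower, against 1.04%.

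Among borders with at least 60 CpG reads in every library, the greatest drops, none called, were in those of Rps13 (29.4%, 25.3%, 11.5%), Rps2 (26.2%, 9.64%, 9.92%), Rps7 (39.5%, 27.2%, 23.7%), Rps21 (19.8%, 10.1%, 5.94%) and Rps6 (14.0%, 0.775%, 3.98%). Beside Rpl8, differences upward were among the greatest in Rpl34 (14.6%, 16%, 24.1%), Rpl32 (9.82%, 5.43%, 17.1%) and Rpl22 (3.76%, 14.6%, 9.90%), none called. From WT to HET the mean changed by -0.416 points (-0.932 to 0.100). The Rps6 border was called lower (-13.2, adjusted p = 0.0117 by Fisher's exact test, -3.13 with CpGs weighted equally), where 0.437% of all borders were called lower and 0.399% higher. A border of Rps2 was lower and those of Rpl5 (37.9%, 54.9%, 34.6%), Rpl22 and Rps18 (13.1%, 23.7%, 15.9%) higher in HET without a call. From HET to HOM the mean changed by -0.898 (-1.38 to -0.415), with a border of Rpl23 (9.83%, 16%, 2.83%) and that of Rpl5 called lower (background 1.09%) and that of Rpl8 higher (background 0.272%). With borders of 1000 bp, 17 of 172 were called lower from WT to HOM and 4 higher, against 5.63% and 1.31% of all.

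Outside the genes, from 1000 to 2000 bp beyond each end, 152 flanks had means of 74.7% in the WT library, 73.3% in HET and 71.5% in HOM. They changed from WT to HOM by -3.21 points (-4.08 to -2.34), against -3.22 over all 32779 flanks. Called lower were 4 (background 2.85%, and 0.567% for higher): those of Rpl36al (54.5%, 37.9%, 29.9%; adjusted p = 8.21e-05 by Fisher's exact test), Rpl28 (84.0%, 60.5%, 66.9%), Rpl27 (99.0%, 90.2%, 82.9%) and Rps28 (92.3%, 89.8%, 82.3%). Between WT and HET the mean changed by -1.43 (-2.23 to -0.625), with flanks of Rpl26 (85.3%, 70.6%, 78.0%), Rpl28 and Rps27a (76.8%, 43.2%, 76.3% over 4 CpGs) called lower (background 0.729%), and one of Rpl5 (76.4%, 93.4%, 87.3%) higher (background 0.519%). A flank of Rpl18 was called lower from HET to HOM (background 2.80%), and those of Rpl7a (57.0%, 33.9%, 54.9%) and Rps27a higher (background 0.592%). In the Rps27a flank HET exceeded WT at 3 of the 4 CpGs and lay below it at 1, with a difference of -4.15 points when CpGs were weighted equally. With counts divided by the CpGs per read, 0 flanks were called in any comparison.

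Many introns of ribosomal protein genes encode small nucleolar RNAs, which guide the modification of ribosomal RNA. By the annotation 28 of the 76 members with a measured body hosted 57 of them. Host bodies had medians of 28.2%, 23.4% and 19.4%, and the 48 bodies without one had 32.5%, 32.2% and 28.9%. The median difference from WT to HOM was -5.02 points in hosts and -2.67 in the others, given as a description with no test.

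Neighbouring lists were measured the same way. From WT to HOM, 3.67% of all CpG-richer ends were called lower and 1.05% higher, and 2.94% and 0.279% of all bodies. Beside those shares the few calls below are given for single genes and not as traits of the lists. The 78 mitochondrial ribosomal protein genes had CpG-richer ends at a median of 5.95%, 6.38% and 4.26%, with 1 called lower from WT to HOM, Mrpl20 (31.0%, 32.5%, 19.0%). Their 75 bodies were at 78.2%, 76.9% and 75.8%, far above those of the cytosolic members, with 4 called lower and 1 higher. Of 34 translation factors, 0 ends were called from WT to HOM and 2 bodies were lower, Eif5 (44.4%, 37.0%, 29.4%) and Eif6 (57.2%, 58.3%, 45.8%). Among 37 ribosome assembly factors the body of Gar1 was lower (64.4%, 57.9%, 52.8%). Among 14 regulators of ribosomal protein synthesis the CpG-richer end of Larp1 was lower (82.0%, 66.8%, 69.8%).

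Facts of the whole libraries bear on all of these values. The table covers 21875444 CpGs with 200824258 CpG reads for WT, 282430649 for HET and 215454437 for HOM, and members' CpG-richer ends had a median of 11.9, 16.9 and 13.0 reads per CpG. Level over all CpGs was 76.0%, 75.6% and 72.3%, and in the open sea, over 4000 bp from any island, 81.6%, 80.9% and 78.1%, so HOM was 3.44 points below WT and HET 0.666 below WT there. Mitochondrial CpGs, which serve as a measure of unconverted cytosine, stood at 0.492%, 0.607% and 0.556%. The CpG-richer end of Kmt2d itself (15:98830669-98832169), the end nearer the substituted base, was unmethylated (0.366%, 0.561%, 0.997%). It is not given here as the start of Kmt2d. The other end had 80.0%, 88.5% and 86.8%, and the body 75.5%, 75.9% and 71.9%. These counts do not read the substituted base and give no check of the genotypes. B-cell markers had CpG-richer ends at a median of 51.1%, 40.6% and 45.0% (Pax5 9.42%, 4.52%, 4.77%). T-cell markers were at 52.8%, 61.4% and 54.1%, with 4 of 10 called higher in HET than in WT, against 1.46% of all ends. Of these markers Cd3e had 52.5%, 77.0% and 55.1%, Cd3d 26.4%, 23.3% and 15.5%, and Cd4 7.18%, 6.97% and 9.38%. NK-cell markers had 54.4%, 55.9% and 53.5%, myeloid markers 74.1%, 75.5% and 71.0%, and erythroid and platelet markers 74.3%, 62.7% and 67.7%. The part of the cell makeup and of the lower genome-wide level of HOM in the members' differences was not tested. Less the open sea difference, the members' mean from WT to HOM was 2.98 points at the CpG-richer ends and 2.12 at borders, which turns the direction. In bodies it was 0.0503, close to no difference. The subtraction adds the same 3.44 points to every region, and regions near 0% cannot fall that far, so this says nothing of ends and borders beyond their low level. It was -1.66 at the other ends and -3.68 from 1500 to 2500 bp downstream.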

How the data were processed

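Splenic B-cell DNA (200 ng, sheared to 800 bp) was bisulfite-converted and sequenced as paired 150 bp reads, per the labels' protocols. The deposited counts are methylated and covering reads per CpG, which the authors made from alignments to mm10; the submitters' processing notes name Trim Galore 0.2.8, Bismark, Bowtie2 and Picard 1.91, and also BWA 0.7.13, Picard 2.3.0 and MethylDackel, without saying which made these columns. The columns carry no sample or replicate number, so each genotype entered as 1 library, and 0 columns of per-sample values were left unmapped.

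Counts were summed over the CpGs of a region and divided (level). Regions needed 3 CpGs and 30 CpG reads in each library. Levels have Wilson and differences Newcombe 95% intervals, and means of differences a normal counting interval; all reflect counting error alone, with CpGs on a shared read taken as independent. Each difference was tested by Fisher's exact test (two-sided) and adjusted by Benjamini-Hochberg over all regions of that kind. CpG islands were scored along each autosome (17 for a CpG, -1 for another base; longer than 200 bp, at least 6 CpGs per 100 bp). An island counted as unmethylated when its core, over 200 bp inside the edges, was below 20% in the mean of the libraries (the whole island where no core CpG had reads). Gene spans came from an annotation of GRCm38 and promoters from RefSeq (GRCm38.p6), where 272942 of 272942 promoter CpGs matched positions of the deposited table. Python 3.11.15, numpy 2.4.6, pandas 2.3.3, numba 0.67.0, scipy 1.17.1 and matplotlib 3.10.9 were used, and the counting and testing steps were tested on simulated data.

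The members and lists were chosen with earlier results of these data known. The genes named are, by rule, all members above 10% in WT at the CpG-richer end with the 5 lowest and 5 highest others, all called members, the 5 (HOM against WT) and 3 (HET against WT) greatest differences each way in bodies and borders with at least 60 CpG reads, and a fixed list of well-known genes; the genes named for the start windows, islands, retrocopies, downstream windows, flanks and bodies outside islands were chosen after their values were seen. The downstream windows and flanks were added after the data had been examined. Alternatives were 100 CpG reads, 5 points, CpGs weighted equally, differences less the open sea difference, counts divided by the CpGs per read, other windows, border widths and island limits, and no paralogues. Values of a few genes that the rule would name are not reported here.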

Additional observations from a re-analysis of the deposited data

How the results depend on the processing

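No paired analysis was possible because the table holds 1 column pair for each genotype with no replicate number, and for the same reason no replicate could be left out. Less the open sea difference, the mean difference was 2.98 (HOM minus WT), 0.335 (HET minus WT) and 2.64 (HOM minus HET) points at the CpG-richer ends, -0.625 (HOM minus HET) at the other ends, 0.0503 (HOM minus WT) and -0.0998 (HOM minus HET) in bodies, and 2.12 and 1.87 at borders (HOM minus WT and HOM minus HET). With windows from 500 bp outside to 250 bp inside, the CpG-richer ends had 0.0465 for HOM minus WT and -0.173 for HET minus WT. With counts divided by the CpGs per read they had -0.434 and -0.219, and with CpGs weighted equally -0.165 and -0.0870. Windows at the transcription start gave -0.200 for HET minus WT and -0.475 for HOM minus HET, and leaving out paralogues -0.134 and -0.301. Bodies had HET minus WT means of -0.755 with 100 reads, -1.09 outside islands and -0.721 with CpGs weighted equally. Borders of 200 bp had -0.0857 (HOM minus WT) and -0.119 (HOM minus HET), and those of 1000 bp -1.22 (HET minus WT). The downstream window moved 250 bp toward the start gave -1.82 for HET minus WT. The single gene whose direction turned was Rps2, from HET to HOM, with 0.701 points in the window at its transcription start.

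Counts of called members depended on the size required and on how reads were weighted. In the order HOM minus WT, HET minus WT and HOM minus HET, the CpG-richer ends had 3, 0 and 3 calls, 7, 4 and 5 with 5 points, 0 in both comparisons with HOM with divided counts, with CpGs weighted equally and with start windows, and 1 for HOM minus WT with the shorter window. Other ends had 8, 1 and 4 calls, 0, 0 and 0 with divided counts, 5, 0 and 2 with CpGs weighted equally, 5 for HOM minus WT and 1 for HOM minus HET with the shorter window, and 2 for HOM minus HET with 100 reads. Bodies had 8, 2 and 7, against 27, 8 and 23 with 5 points, 2, 0 and 4 with divided counts, 4, 0 and 4 with CpGs weighted equally and 15, 0 and 11 outside islands. Borders had 1, 1 and 3, against 0, 0 and 0 with divided counts or 200 bp, 21, 13 and 8 with 1000 bp, and 0 for HET minus WT and 1 for HOM minus HET with CpGs weighted equally. Downstream windows had 8, 0 and 5, against 0 in both comparisons with HOM with divided counts, 1 for HOM minus WT and 2 for HOM minus HET from 2000 to 3000 bp, and 1 for HET minus WT when moved 250 bp toward the start. Beyond their construction, the cause of these changes was not tested. Depth limits single regions: the downstream difference of Rpl23, over 5 CpGs, has a counting interval from -44.1 to -11.3 points, and that of Rps21, over 17 CpGs, one from -16.9 to -5.10.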
